A study of Mus musculus with 14 samples.

Results

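The genes described here are 10 feedback genes of the ERK pathway, taken by symbol from the 55367 gene symbols of each count table, where all 10 were found. They are the phosphatases Dusp4, Dusp5 and Dusp6, the Sprouty genes Spry1, Spry2 and Spry4, their relatives Spred1 and Spred2, and the transcription factors Etv4 and Etv5. Messenger RNA was sequenced from wild-type mouse bone marrow cells depleted of mature lineages and cultured with SCF, IL6 and IL3. Cells of the first experiment received a pSMAL lentivirus carrying luciferase (3 libraries) or SETBP1-D868N (3 libraries), a mutant of the nuclear protein SETBP1 known from myeloid leukemia. In the second experiment all cells carried SETBP1-D868N, the controls included, and received DMSO, the solvent (4 libraries), or 2.5 µM PF-9363 (4 libraries) over 4 days, the latter an inhibitor of MYST histone acetyltransferases. The labels give neither the age of the mice nor the promoter that drives the lentiviral insert. They do not say whether libraries of a group came from separate animals, so p-values measure the spread between these libraries, which may be technical.

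ERK is the last kinase of the cascade that runs from growth factor receptors through RAS, RAF and MEK. Active ERK switches on genes whose products restrain the cascade. DUSP phosphatases remove phosphate from ERK and other MAP kinases, Sprouty and SPRED proteins act further up, at receptors, RAS and RAF, and ETV4 and ETV5 are ETS-family transcription factors induced by the same signal. In blood progenitors the pathway lies downstream of KIT, the receptor for SCF, and of the IL3 receptor.

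Depth was 60147266 to 68730322 counts per library with luciferase or SETBP1-D868N and 7083731 to 10359093 with DMSO or PF-9363. Levels are given as CPM, counts scaled to a common library total by TMM within each experiment, and differences were tested only within an experiment. In the luciferase libraries the 8 stem and progenitor genes ranged from Mecom (1.25 CPM) to Gata2 (500.2). Kit stood at 180.5 CPM, Myb at 196.4, Cd34 at 67.5, Meis1 at 24.9, Flt3 at 13.5 and Ly6a at 12.0. The summed level was 14566 to 14987 CPM for 6 neutrophil genes and 4395 to 4607 CPM for 8 mast cell and basophil genes. The cultured cells thus also expressed genes of mature cells. The summed level of 5 lymphoid markers was 0.357 to 0.522 CPM with luciferase, 0.138 to 0.211 with SETBP1-D868N, 0.198 to 1.09 with DMSO and 0.412 to 2.06 with PF-9363, and 3 of the 5, Cd3e and Cd3g among them, were at 0 counts in all libraries of the second experiment.

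The ERK feedback genes did not move in 1 direction in either comparison. Over all genes tested, 24.5% were called higher and 22.7% lower with SETBP1-D868N, and 36.6% and 39.4% with PF-9363. With SETBP1-D868N, Dusp4 fell (log2 fold change −0.92) while Etv4 rose (0.94). With PF-9363, Dusp4 rose 8.46-fold and Spred1 2.56-fold, while Spry2 fell 2.32-fold. Dusp5 and Etv5 fell in both comparisons.

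**Figure D1:**
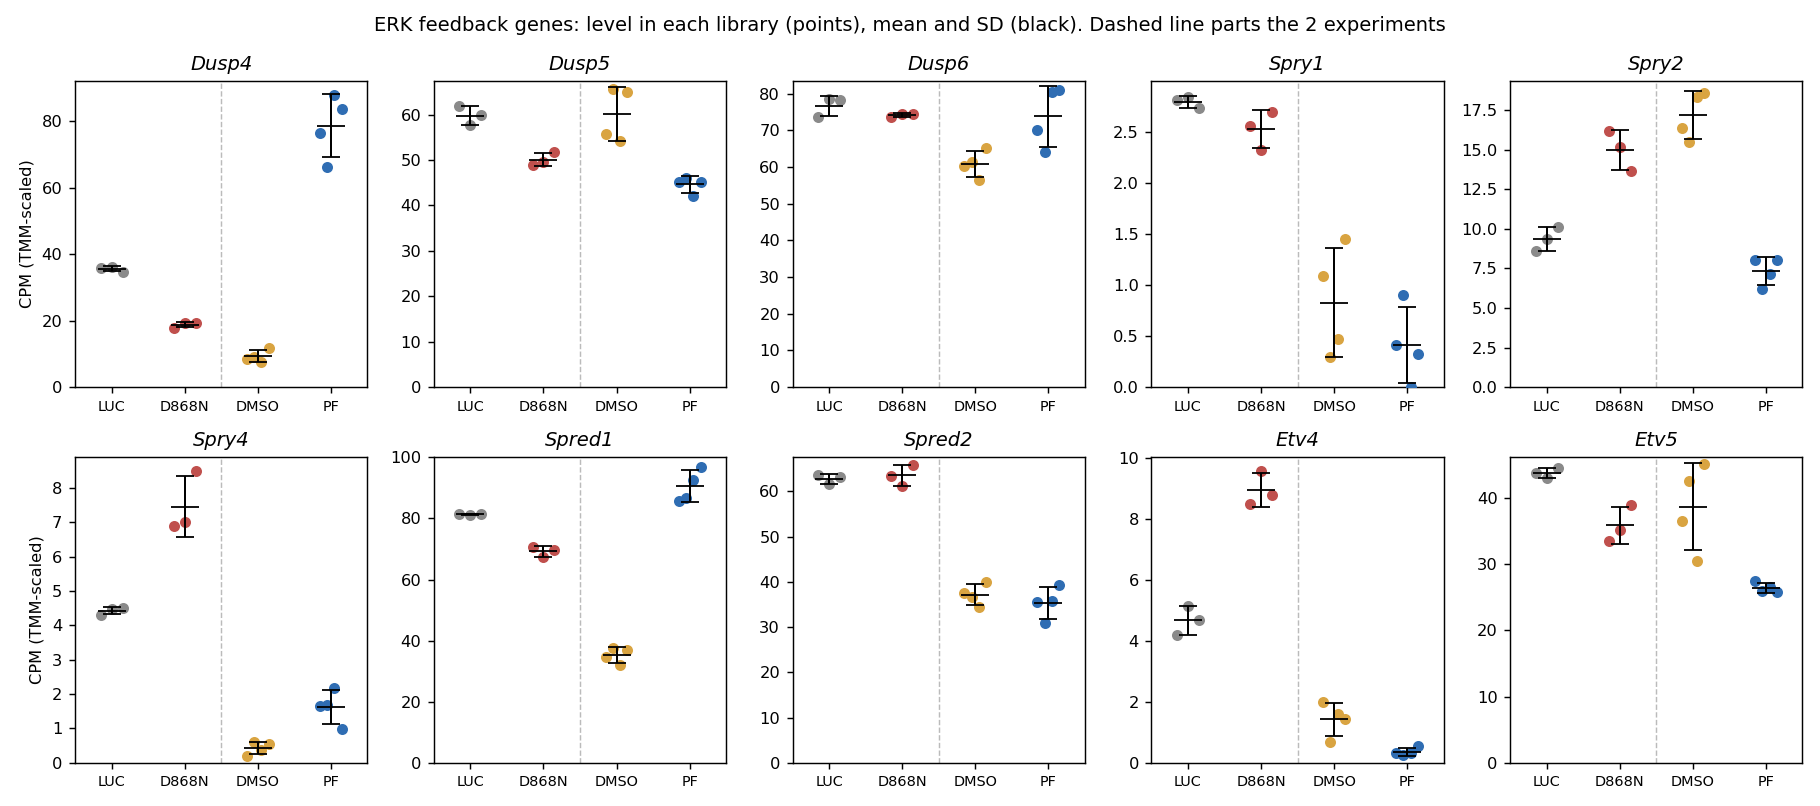
TMM-scaled CPM (y axis, from 0) of the 10 ERK feedback genes in the luciferase (LUC), SETBP1-D868N (D868N), DMSO and PF-9363 (PF) libraries. Points are libraries, bars the mean and SD, and the experiments were scaled separately. For Dusp4 the PF-9363 libraries lie at 66.3 to 87.8 CPM, above the DMSO libraries at 7.68 to 11.8 CPM.

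The first comparison asked which of these transcripts differ in cells carrying SETBP1-D868N. All 10 genes passed the expression filter, and 7 were called at an edgeR adjusted p under 0.05, where 47.2% of the 15794 genes tested were called. Of the 10, 3 were higher (24.5% of all genes) and 4 lower (22.7%). Scaling by library size alone left these counts at 3 and 4, while over all genes it changed the split from 3869 higher and 3579 lower to 4905 and 2997. The median log2 fold change of the 10 was −0.097, against 0.0043 over all genes tested. The libraries of the groups did not overlap for 8 of the 10 (56.7% of all genes), 3 of them higher (29.4%) and 5 lower (27.3%).

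Dusp4, which encodes a nuclear phosphatase of MAP kinases, lies at chr8:34807297-34819894 (GRCm38, as are all positions here). The luciferase libraries stood at 35.9, 36.0 and 34.7 CPM and the SETBP1-D868N libraries at 17.8, 19.2 and 19.3 CPM. All SETBP1-D868N libraries lay below all luciferase libraries (log2 fold change −0.92, SE 0.044, edgeR adjusted p 2.75e-08).

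Dusp5, which encodes a nuclear phosphatase selective for ERK, lies at chr19:53529109-53542431. It went from 61.9, 57.6 and 59.9 CPM to 49.0, 49.6 and 51.8 CPM. The groups did not overlap, and the fall was smaller than that of Dusp4 (log2 fold change −0.25, SE 0.037, edgeR adjusted p 1.21e-04). Its exons share 547 bases with the antisense gene AC137853.2, which has no row of its own here, and the strand handling of the counting is not given in the sources used here. The stretch before its start is shown because it holds adjacent CArG boxes, the element bound by serum response factor, which works with ERK-activated ETS partners. It is taken from RefSeq (GRCm38.p6, plus strand, chr19:53528895-53529108) and ends at the base before the GENCODE gene, with the boxes in capitals.

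Dusp5: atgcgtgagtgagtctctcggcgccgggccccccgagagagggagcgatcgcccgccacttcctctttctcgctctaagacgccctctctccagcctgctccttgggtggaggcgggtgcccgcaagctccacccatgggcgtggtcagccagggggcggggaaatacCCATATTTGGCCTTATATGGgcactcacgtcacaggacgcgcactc

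The boxes begin 82 and 72 bases before the RefSeq start site. Of 32851 promoter windows of 300 bases, 1.63% held at least 1 CArG box and 0.0183% (6 windows) held 2 or more. This motif was added after the sequence had been seen. Windows were at hand for 7 of the 10 genes, not for Dusp4, Spry4 and Etv4, and in no other of the 7 was the box found.

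Dusp6 encodes the cytoplasmic ERK phosphatase and lies at chr10:99263231-99267489. Its luciferase libraries stood at 73.5, 78.5 and 78.1 CPM and its SETBP1-D868N libraries at 73.5, 74.5 and 74.3 CPM. The groups overlapped and Dusp6 was not called (log2 fold change −0.049, 95% interval −0.12 to 0.021, edgeR adjusted p 0.235).

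Sprouty genes encode membrane-associated inhibitors of receptor signalling to RAS and RAF. Spry2 (chr14:105891947-105896819, minus strand) went from 8.59, 9.35 and 10.1 CPM to 16.2, 15.2 and 13.6 CPM. All SETBP1-D868N libraries lay above all luciferase libraries (log2 fold change 0.68, SE 0.077, edgeR adjusted p 2.07e-05). Spry4 went from 4.32, 4.48 and 4.50 CPM to 6.89, 7.00 and 8.50 CPM, also without overlap (log2 fold change 0.75, SE 0.095, edgeR adjusted p 4.19e-05). Both genes thus rose.

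Spry1 (chr3:37639947-37644598) was low, at 2.81, 2.84 and 2.73 CPM with luciferase and 2.56, 2.32 and 2.70 CPM with SETBP1-D868N. These values did not overlap, but Spry1 was not called (log2 fold change −0.15, 95% interval −0.38 to 0.094, edgeR adjusted p 0.304). Its exons share 710 bases with Gm42922 on the opposite strand, which held 4 to 6 counts per luciferase library.

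Spry2 was the single gene of the 7 whose window held CCGGAA, a form of the ETS site, searched on both strands. Shorter and other forms of the ETS site were not searched. The match starts 34 bases from the start site, inside the transcript, and 14.9% of all windows hold this motif. The surrounding 28 bases are shown with the match in capitals (RefSeq, GRCm38.p6, minus strand, chr14:105896770-105896797). TGACGTCA, the CRE (in 1.79% of windows), and TGANTCA, the AP-1 site (in 7.81%), were found in no window of the 7 genes on either strand.

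Spry2: ggtcatctatcCCGGAAtccgggagggt

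SPRED proteins bring neurofibromin to RAS. Spred1 (chr2:117121374-117182279) stood at 81.4, 81.2 and 81.6 CPM with luciferase and 70.8, 67.4 and 69.6 CPM with SETBP1-D868N. The groups did not overlap, and Spred1 fell (log2 fold change −0.23, SE 0.029, edgeR adjusted p 4.33e-05). Spred2 (chr11:19924375-20024026) stood at 63.5, 61.5 and 63.2 CPM against 63.4, 61.3 and 65.9 CPM. Its groups overlapped and it was not called (log2 fold change 0.018, 95% interval −0.056 to 0.092, edgeR adjusted p 0.697).

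The ETS factors moved in opposite directions. Etv4 (chr11:101769742-101785371, minus strand) went from 4.20, 5.14 and 4.68 CPM to 8.50, 9.57 and 8.77 CPM. All SETBP1-D868N libraries were above all luciferase libraries (log2 fold change 0.94, SE 0.088, edgeR adjusted p 4.33e-06). Etv5 (chr16:22381309-22439719, minus strand) went from 43.8, 43.1 and 44.5 CPM to 33.5, 35.2 and 38.9 CPM, without overlap and in the other direction (log2 fold change −0.29, SE 0.050, edgeR adjusted p 5.68e-04).

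Marker lists moved in the same libraries, where 24.5% of all genes tested were called higher and 22.7% lower. The summed level of 8 monocyte and macrophage genes was 3177 to 3340.3 CPM with luciferase and 2175 to 2404 CPM with SETBP1-D868N, and 7 of the 8 were called lower. All 6 neutrophil genes were called lower, with sums of 14566 to 14987 and 7772 to 9484 CPM. All 5 genes of early granulocyte and monocyte progenitors were called higher, with sums of 4774 to 5067 and 6483 to 6582 CPM. Of 8 mast cell and basophil genes, 3 were called higher and 5 lower (4395 to 4607 and 3929.8 to 4069.7 CPM). Those higher were Ms4a2 (0.65), Mcpt8 (0.48) and Hdc (0.12). Those lower were the tryptase genes Tpsab1 (−2.03) and Tpsb2 (−1.86), Cma1 (−0.78), Fcer1a (−0.68) and Cpa3 (−0.54). The choice to give this list gene by gene was made after its values were seen. Of 8 cell division genes, 6 were called higher and 0 lower, with overlapping sums of 2310.3 to 2531 and 2425 to 2629 CPM. The stem and progenitor list had 5 higher and 3 lower of 8, the eosinophil list 0 and 2 of 4, the megakaryocyte list 1 and 3 of 4, the erythroid list 1 and 0 of 4, and the stromal and endothelial list 2 and 0 of 3 tested. In bulk RNA fewer cells of a type and less RNA per cell cannot be told apart, and the part of these lists in the changes of the feedback genes was not tested.

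**Figure D2:**
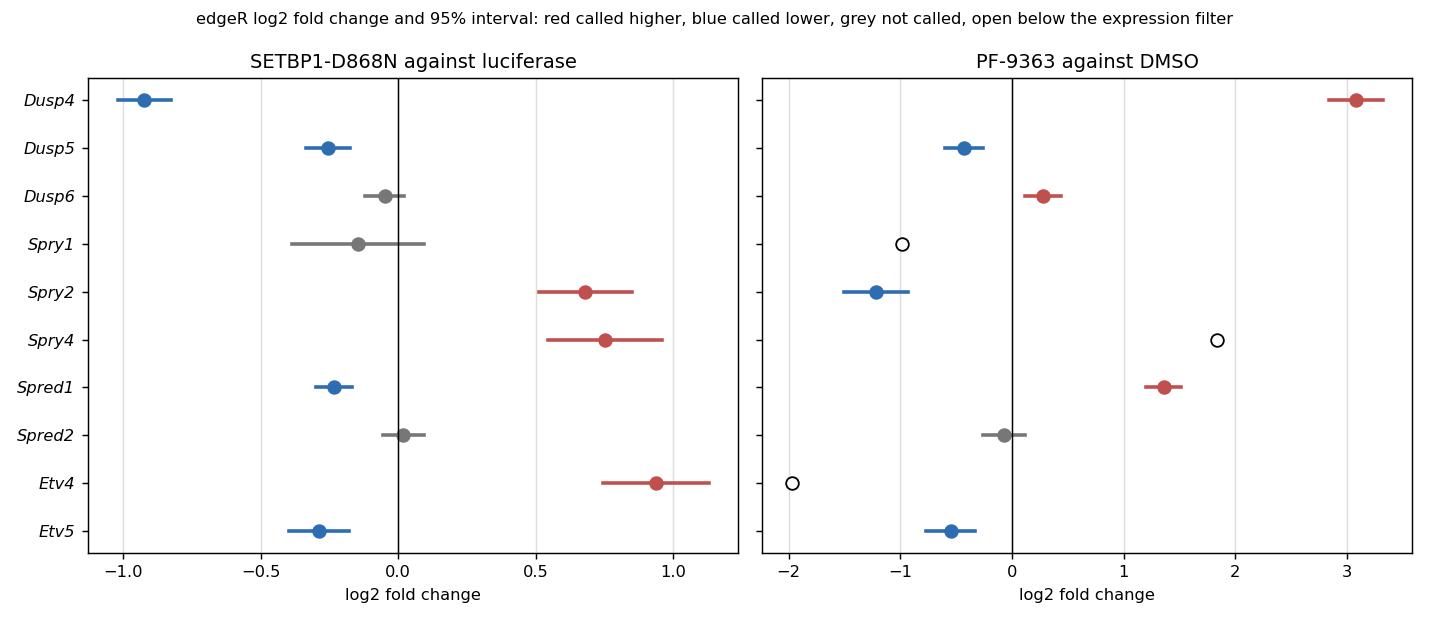
edgeR log2 fold change (x axis) of each ERK feedback gene in both comparisons, with lines for the 95% interval. Red marks genes called higher, blue called lower and grey not called, and open circles are genes below the expression filter, drawn from the fit without a filter. Dusp4 stands at −0.92 in the left panel and 3.08 in the right, and the x axes differ.

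The second comparison asked how the same transcripts respond to PF-9363 in cells carrying SETBP1-D868N. Of the 10 genes, 7 passed the expression filter, while Spry1, Spry4 and Etv4 had too few counts. Of the 7, 6 were called, where 76.0% of the 13456 genes tested were called. Of these, 3 were higher (36.6% of all genes) and 3 lower (39.4%). Scaling by library size alone gave 2 higher and 4 lower, and over all genes 3775 and 6653 in place of 4921 and 5307. The median log2 fold change of the 7 was −0.07, against −0.038 over all genes tested. Groups did not overlap for 5 of the 7 (70.3% of all genes), 2 of them higher (34.0%) and 3 lower (36.3%).

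Dusp4 stood at 8.53, 8.98, 7.68 and 11.8 CPM with DMSO and 76.4, 66.3, 87.8 and 83.7 CPM with PF-9363. Every treated library lay far above every control library (log2 fold change 3.08, SE 0.12, edgeR adjusted p 2.81e-18). Over the alternative analyses the log2 fold change ranged from 2.85 to 3.22.

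The other phosphatases changed less. Dusp5 fell from 55.8, 65.7, 54.1 and 65.0 CPM to 45.2, 46.1, 42.0 and 45.1 CPM, without overlap (log2 fold change −0.43, SE 0.083, edgeR adjusted p 3.72e-05). Dusp6 stood at 60.4, 61.4, 56.5 and 65.1 CPM with DMSO and 69.9, 63.9, 80.5 and 80.9 CPM with PF-9363. Its groups overlapped, and it was called higher (log2 fold change 0.28, SE 0.080, edgeR adjusted p 0.00278). Scaling by library size alone, which moves the median of all genes in this comparison by −0.23, left Dusp6 at 0.046 with no call (edgeR adjusted p 0.601).

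Spred1 rose from 34.7, 37.5, 31.9 and 37.0 CPM to 85.8, 86.6, 92.6 and 97.0 CPM. All treated libraries exceeded all controls (log2 fold change 1.36, SE 0.078, edgeR adjusted p 2.30e-15). Spred2 stood at 37.5, 36.7, 34.4 and 39.9 CPM against 35.4, 30.8, 35.8 and 39.3 CPM. It was not called (log2 fold change −0.07, 95% interval −0.26 to 0.12, edgeR adjusted p 0.502), whereas scaling by library size alone called it lower (−0.30, edgeR adjusted p 0.00439).

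Spry2 fell from 16.4, 15.5, 18.4 and 18.6 CPM to 8.03, 6.19, 7.16 and 8.03 CPM. The groups did not overlap (log2 fold change −1.22, SE 0.14, edgeR adjusted p 8.09e-09). Etv5 fell from 36.5, 42.6, 30.4 and 45.2 CPM to 27.4, 25.9, 26.6 and 25.8 CPM. Its DMSO libraries were spread widely and its treated libraries closely, without overlap (log2 fold change −0.55, SE 0.11, edgeR adjusted p 4.71e-05).

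The 3 genes below the filter are given as counts. Spry4 had 2, 6, 4 and 6 counts with DMSO and 16, 13, 14 and 9 with PF-9363, higher in every treated library. Its mean was 0.429 ± 0.181 CPM (SD, n = 4) against 1.62 ± 0.494 CPM, with a two-sided exact permutation p of 0.0286, the smallest that 4 against 4 libraries allow. Etv4 had 20, 7, 17 and 16 counts with DMSO and 3, 2, 2 and 5 with PF-9363, lower in every treated library, with the same exact permutation p. Adjusted over the 3 genes, both p-values of the exact test became 0.0429. Without a filter the edgeR fit gave Spry4 a log2 fold change of 1.84 ± 0.53 (SE, adjusted p 0.00149) and Etv4 −1.97 ± 0.56 (SE, adjusted p 0.00128). That fit took in 25196 genes, and its p-values can be far smaller than those of the filtered fit. The edgeR adjusted p was 1.85e-181 against 2.81e-18 for Dusp4 and 1.02e-55 against 2.30e-15 for Spred1. For Dusp6 it was larger (0.00382 against 0.00278). The unfiltered p-values of Spry4 and Etv4 are therefore not read as calls. Spry1 had 11, 3, 5 and 16 counts against 4, 7, 0 and 3, and a difference was not detectable at these counts (exact permutation p 0.229).

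Marker lists moved in these libraries as well, where 36.6% of all genes tested were called higher and 39.4% lower. All 8 cell division genes were called lower, with sums of 2531 to 2705 CPM with DMSO and 399.6 to 686 CPM with PF-9363. The monocyte and macrophage sum was 3691 to 3747 against 9576 to 11352 CPM (6 of 8 genes called higher, 2 lower), and the mast cell and basophil sum 994 to 1265 against 4145 to 5157 CPM (7 of 8 called higher, 0 lower). All 5 early granulocyte and monocyte progenitor genes were called lower, with sums of 5701 to 6825 and 289 to 456 CPM. All 4 eosinophil genes were called lower as well (593 to 776 and 231 to 326 CPM). The megakaryocyte sum was 42.5 to 54.1 against 212 to 232 CPM (2 called higher and 1 lower of 3 tested), and the neutrophil sum 11050.4 to 13377 against 13121 to 14727 CPM (2 higher and 1 lower of 6). The stem and progenitor list had 4 higher and 2 lower of 8, and the erythroid and the stromal and endothelial lists 0 and 1 higher and 0 lower of 1 and 2 tested. The part of these lists in the changes of Dusp4, Spred1 and Spry2 was not tested.

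The comparisons share no library, and 7 of the 10 genes were tested in both. Dusp4 and Spred1, 2 of 7, were lower with SETBP1-D868N and higher with PF-9363 (16.8% of all genes), and Spry2, 1 of 7, was higher and then lower (18.1%). These 3 of 7 genes were called in opposite directions, where 34.9% of the 12376 genes tested in both were. Dusp5 and Etv5, 2 of 7, were lower in both. Of all genes, 9.05% were called in the same direction in both, with those higher in both included.

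Levels of different genes can be compared only per length, so CPM was divided by the exonic length in kb. With luciferase the order was Dusp6 (27.4 ± 0.982 CPM per kb, SD, n = 3), Dusp5 (24.2 ± 0.861), Spred2 (14.1 ± 0.236), Dusp4 (13.0 ± 0.263), Spred1 (12.0 ± 0.0249) and Etv5 (10.9 ± 0.179). Spry2 (4.49 ± 0.372), Etv4 (1.95 ± 0.197), Spry1 (0.962 ± 0.0200) and Spry4 (0.932 ± 0.0211) followed, and of all neighbours in this order only the last pair overlapped. With SETBP1-D868N the order was Dusp6 (26.5 ± 0.182), Dusp5 (20.3 ± 0.602), Spred2 (14.3 ± 0.518), Spred1 (10.2 ± 0.258), Etv5 (8.91 ± 0.690), Spry2 (7.18 ± 0.607), Dusp4 (6.85 ± 0.304), Etv4 (3.73 ± 0.232), Spry4 (1.57 ± 0.189) and Spry1 (0.870 ± 0.0649 CPM per kb). Here only Spry2 and Dusp4 overlapped.

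With DMSO, Dusp5 (24.3 ± 2.44 CPM per kb, SD, n = 4) and Dusp6 (21.8 ± 1.27) led and overlapped, followed by Etv5 (9.60 ± 1.64), Spred2 (8.34 ± 0.514) and Spry2 (8.24 ± 0.732), which overlapped as neighbours. Spred1 (5.20 ± 0.376) and Dusp4 (3.37 ± 0.650) came next, and Etv4 (0.596 ± 0.224), Spry1 (0.285 ± 0.185) and Spry4 (0.0902 ± 0.0381) were lowest and overlapped as neighbours. With PF-9363, Dusp4 (28.7 ± 3.45) and Dusp6 (26.4 ± 2.97) overlapped at the top. Dusp5 (18.0 ± 0.726), Spred1 (13.3 ± 0.777), Spred2 (7.94 ± 0.780), Etv5 (6.56 ± 0.183) and Spry2 (3.52 ± 0.421) followed without overlap, and Spry4 (0.341 ± 0.104), Etv4 (0.148 ± 0.0530) and Spry1 (0.141 ± 0.128 CPM per kb) overlapped at the bottom.

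The makeup of a family within a library does not depend on the scaling between libraries. Dusp4 made up 19.6% to 20.4% of the summed counts per kb of the 3 phosphatases with luciferase and 12.3% to 13.1% with SETBP1-D868N. It made up 6.24% to 7.99% with DMSO and 36.8% to 41.2% with PF-9363. Spred1 made up 45.7% to 46.4% of the SPRED pair with luciferase against 40.9% to 42.3% with SETBP1-D868N, and 37.8% to 40.1% with DMSO against 61.4% to 64.8% with PF-9363. None of these ranges for Dusp4 and Spred1 overlapped within an experiment.

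Etv4 made up 13.9% to 16.7% of Etv4 and Etv5 with luciferase and 27.4% to 31.3% with SETBP1-D868N, without overlap. Its share was 2.68% to 8.36% with DMSO and 1.64% to 3.41% with PF-9363, which overlapped. Spry2 was the main Sprouty transcript in all 14 libraries, with 68.7% to 72.0% for luciferase and 70.7% to 76.9% for SETBP1-D868N, which overlapped, and 93.6% to 97.3% for DMSO against 81.7% to 92.4% for PF-9363, which did not. The mean Spry2 share differed by −7.95 percentage points between DMSO and PF-9363, and by −15.1 points in counts not divided by length. In the second experiment the two-sided exact permutation p was 0.0286 for Dusp4, Spred1 and Spry2, the smallest this design allows, and 0.0762 when adjusted over the 8 shares tested. No share therefore passed 0.05 after adjustment, and 3 against 3 libraries cannot go below an exact p of 0.1.

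**Figure D3:**
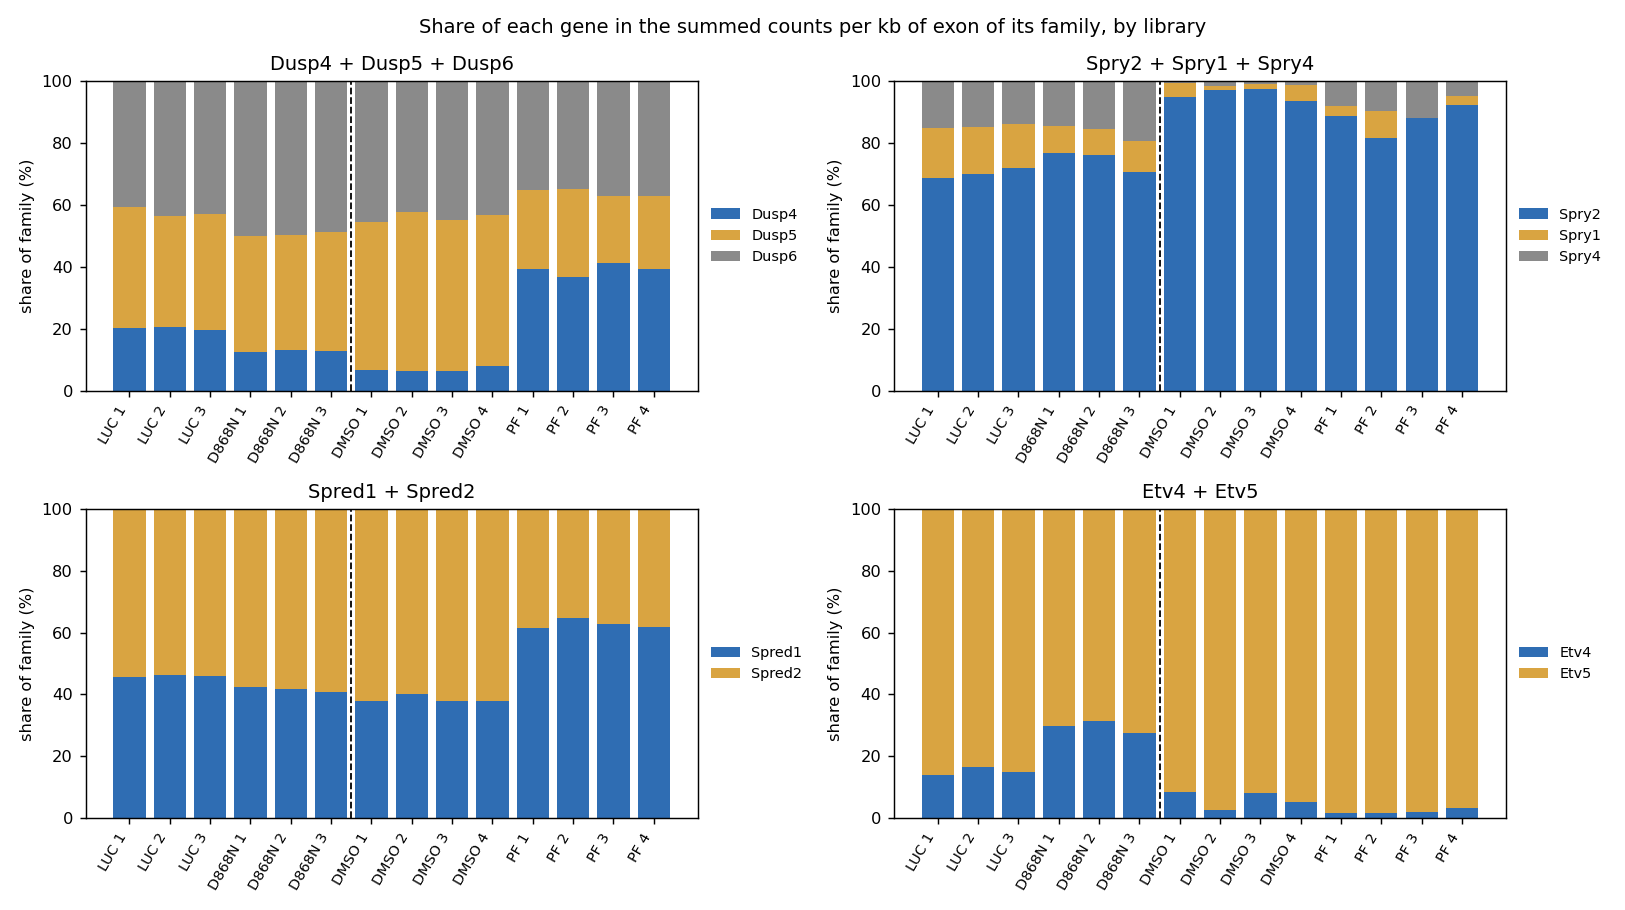
Stacked bars give, for each of the 14 libraries (x axis), the share in percent (y axis) of every gene in the summed counts per kb of its family, with 1 panel per family. Dusp4 takes 36.8% to 41.2% of the phosphatase sum in the 4 PF-9363 libraries and at most 20.4% in the others.

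Further genes of the pathway were taken from lists of receptors, cascade members, other brakes and other outputs. With SETBP1-D868N, 24.5% of all genes tested were called higher and 22.7% lower (median log2 fold change 0.0043). With PF-9363 the shares were 36.6% and 39.4% (median −0.038), and the counts of each list are to be read beside these. Of 12 receptor genes, 2 were called higher and 9 lower with SETBP1-D868N, with a median log2 fold change of −0.41. Kit, the SCF receptor (−0.66, SE 0.029), Csf1r, the M-CSF receptor (−0.60, SE 0.031), and Csf2rb2, a chain of the IL3 receptor (−0.58, SE 0.029), were lower. Il3ra, the ligand-binding chain of the IL3 receptor, was higher (0.23, SE 0.048). With PF-9363, 9 of the 10 receptor genes tested were called higher and 1 lower, with a median of 1.79. The rise was largest for Csf2rb2 (2.91), Csf1r (2.77) and Csf3r, the G-CSF receptor (2.00). Csf2rb2 and Csf2rb are near-identical paralogs, and how reads were divided among the pair is uncertain.

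With SETBP1-D868N, 3 of the 20 cascade genes were called higher and 8 lower (median log2 fold change −0.036), and 5 and 6 when scaled by library size alone (median 0.013). Mapk3, which encodes ERK1, was lower (−0.32, SE 0.029), as were the RAS relative Rras2 (−0.48) and the kinase gene Braf (−0.39). Hras (0.14) and the kinase gene Araf (0.11) were higher.

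With PF-9363, 14 of the 20 cascade genes were called higher and 4 lower (median 0.34). Over all genes tested, 36.6% were called higher and 39.4% lower (median −0.038). Scaling by library size alone gave 9 and 5 cascade genes (median 0.11, against −0.27 over all genes). The adaptor gene Gab2 (1.49) and the RAS activator gene Sos2 (1.11) rose. Mapk3 was lower (−0.29, SE 0.060), as was the MEK gene Map2k1 (−0.29).

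The remaining 7 MAP kinase phosphatases can be set beside Dusp4, Dusp5 and Dusp6. With SETBP1-D868N, Dusp1 (−0.61), Dusp16 (−0.26), Dusp10 (−0.22) and Dusp8 (−0.94) were called lower and Dusp2 (0.25) higher, while Dusp7 (0.032) and Dusp9 (0.28) were not called. Among the fits without a replicate block, the call of Dusp8 was lost under DESeq2 and limma-voom and when any 1 library except luciferase 1 was left out. That of Dusp2 was lost under DESeq2 and without luciferase 1 or 2 or SETBP1-D868N 1 or 3. With PF-9363, Dusp16 (1.56), Dusp1 (1.03) and Dusp7 (0.61) were higher and Dusp2 (−0.58) lower, and Dusp10 (0.29) was not called. Dusp9 had 3 to 14 counts in the DMSO libraries and 0 in all 4 PF-9363 libraries, and Dusp8 had 2 to 8 and 3 to 20 counts, both below the filter.

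Of 14 other brakes on RAS and ERK, 13 were tested in each comparison. With SETBP1-D868N, 2 were called higher and 5 lower (median −0.15), and 4 and 5 when scaled by library size alone. Errfi1, which encodes an inhibitor of EGF receptors (−0.80), the ubiquitin ligase gene Cblb (−0.37) and Rasa3, a RAS GTPase-activating gene (−0.34), were lower, and the RAF inhibitor gene Pebp1 (0.31) and Rasal3 (0.12) higher. With PF-9363, 9 were called higher and 4 lower (median 0.56). Cbl (0.97), Rasal3 (0.76) and the neurofibromin gene Nf1 (0.63) rose, and Spred3, the third SPRED gene (−2.10, SE 0.27), Pebp1 (−0.72) and Errfi1 (−0.44) fell. DESeq2 did not call Errfi1, nor did the fits without DMSO 1, DMSO 2 or PF-9363 2. Spred3 was not called with SETBP1-D868N (−0.24, edgeR adjusted p 0.0770). Spry3 had 2 to 9 counts per luciferase library and 0 to 2 per DMSO library and was tested in neither comparison.

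Other genes that ERK is known to induce also went both ways. With SETBP1-D868N, 3 of 15 were called higher and 7 lower (median −0.32). The AP-1 gene Fosl1 (0.75), Egr1 (0.53) and Myc (0.48) were higher, and the cyclin D1 gene Ccnd1 (−0.74), Egr2 (−0.61) and Ier3 (−0.43) lower. With PF-9363, 7 of the 12 tested were called higher and 2 lower (median 0.57), and 6 and 4 when scaled by library size alone. Egr3 (2.53), Egr2 (1.99) and Junb (1.35) were higher, and Fosl1 (−3.61) and Myc (−2.55) lower. Etv1, the third gene of the subfamily of Etv4 and Etv5, went from 0.822 ± 0.0679 to 0.486 ± 0.0332 CPM with SETBP1-D868N (log2 fold change −0.76, edgeR adjusted p 0.00670). With PF-9363 it went from 0.920 ± 0.518 to 4.32 ± 1.82 CPM (log2 fold change 2.19, edgeR adjusted p 4.32e-06).

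**Figure D4:**
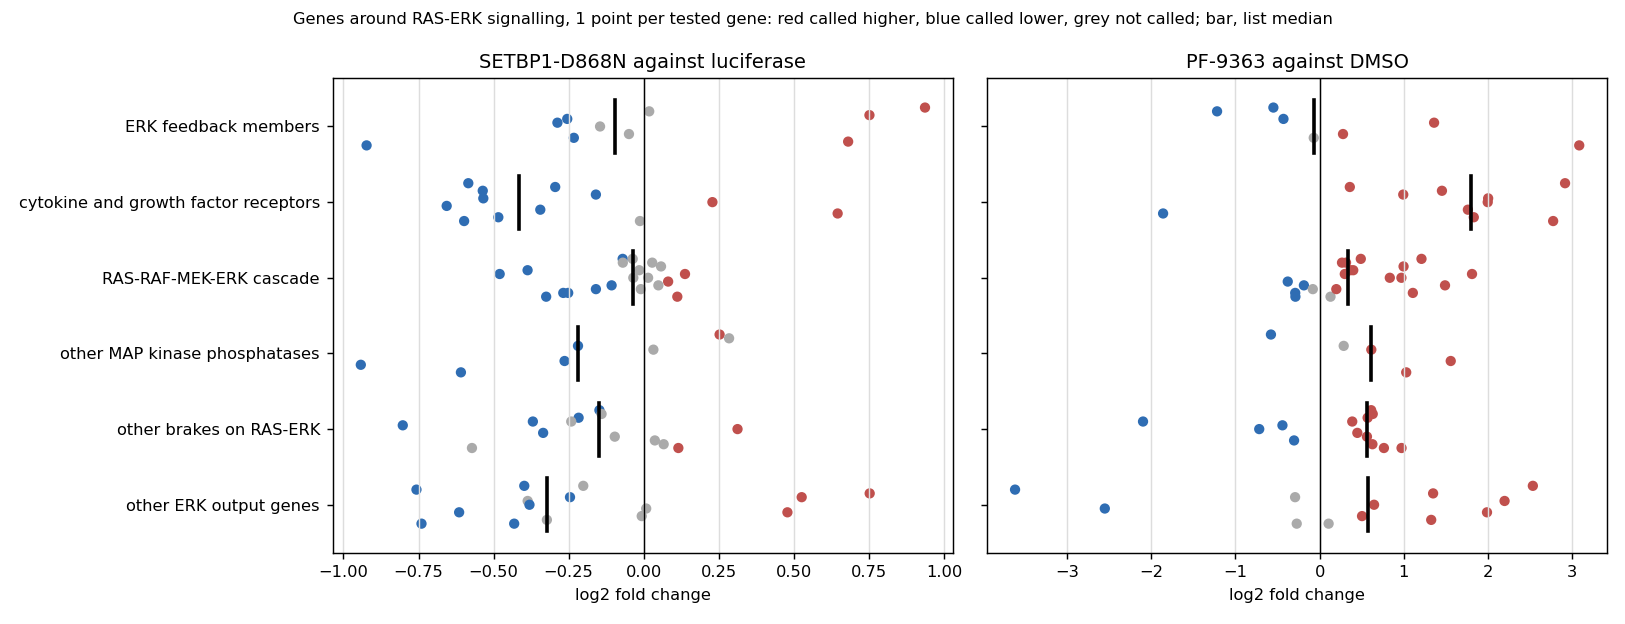
edgeR log2 fold change (x axis) of every tested gene of the ERK feedback genes and of 5 lists around them (y axis), with 1 panel per comparison. Red points were called higher, blue lower and grey not called, and black bars are list medians. The receptors have medians of −0.41 and 1.79 and the ERK feedback genes medians of −0.097 and −0.07. Genes of both lists lie on both sides of 0 in each panel.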

How the data were processed

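RNA was measured in 14 mouse libraries. The authors deposited counts per gene symbol, 1 table per experiment, and per the labels these are raw counts. STAR, DESeq2 and GRCm38/mm10 are named in the submitters' processing notes without a role, and the counter, annotation and strand setting are not given in the sources used here. RNA input was 500 ng with a Watchmaker kit, then 100 ng with libraries by Novogene, per the labels' protocols.

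Everything else was computed here in R 4.3.3. Genes were kept by filterByExpr (minimum count 10, minimum total 15), scaled by TMM, and tested with the quasi-likelihood test of edgeR 4.0.16 with the group as the single factor and Benjamini-Hochberg adjustment over all genes tested, and called at an adjusted p under 0.05. The script was tested on simulated data. DESeq2 1.42.0, limma 3.58.1 (voom), other scalings and filters, no robust estimation, a replicate block and leaving out each library were alternatives. Positions and exonic lengths are from GENCODE M21 and promoter windows (250 bases before to 50 after the start) from RefSeq, matched by symbol.

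The 10 members and all lists were chosen with earlier results of these data known. All 10 are named. From each pathway list, up to 3 called genes per direction with the largest log2 fold change and at least 5 CPM are named, with the 7 other MAP kinase phosphatases, Mapk3, Spry3, Spred3 and Etv1 in any case. Some genes that this rule names are not reported here. Family shares were added after the counts were seen. At 0 counts the limit of 3 counts is 0.0436 to 0.0499 CPM in the first experiment and 0.290 to 0.424 CPM in the second, for counting error only.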

Additional observations from a re-analysis of the deposited data

How the results depend on the processing

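The number of ERK feedback genes called higher or lower stayed within 1.5 times its value in all 60 alternative counts. Of the log2 fold changes, 248 kept direction and side of the threshold. When each library was left out in turn, Spred2 ranged from −0.12 to 0.0025 with PF-9363, positive without PF-9363 replicate 2, and from −0.011 to 0.038 with SETBP1-D868N, negative without SETBP1-D868N replicate 3, and was called in none of these fits. Scaling by library size alone moved the median of all genes with PF-9363 by −0.23. Under it Dusp6 went from 0.28 to 0.046 and lost its PF-9363 call. Spred2 went from −0.07 to −0.30 and became a lower call. Why the scalings differ was not tested. Of 64 alternative family shares, 62 moved by less than the spread between libraries. In counts not divided by length, the PF-9363 difference in the Spry2 share was −15.1 percentage points and the SETBP1-D868N difference in the Etv4 share 10.4 points, in place of −7.95 and 14.4.

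Libraries with the same replicate number did not deviate together (r −0.0968 to −0.0369 in the first experiment, −0.0402 to 0.0075 in the second). With a replicate block, 3 genes were called higher and 4 lower with SETBP1-D868N, and 3 and 3 with PF-9363. Of the other genes named, the block lost the SETBP1-D868N calls of Braf, Dusp2 and Dusp8. Low counts limit Spry1, Spry4 and Etv4 in the second experiment, where no library held more than 20 counts of any of them. Depth and the CPM of these genes were both lower there than in the first experiment.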

Other observations

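SETBP1-D868N cells without inhibitor occur in both experiments, as the SETBP1-D868N libraries of the first and the DMSO libraries of the second. Spry4 stood at 7.46 ± 0.898 CPM (SD, n = 3) in the first and 0.429 ± 0.181 CPM (SD, n = 4) in the second. Etv4 stood at 8.95 ± 0.556 and 1.43 ± 0.538 CPM, and Dusp4 at 18.8 ± 0.834 and 9.25 ± 1.78 CPM. Dusp5 stood at 50.1 ± 1.49 and 60.2 ± 6.03 CPM, and Etv5 at 35.9 ± 2.78 and 38.7 ± 6.59 CPM. The tables were scaled separately and differ in solvent, the 4 days of treatment, RNA input, library preparation and depth. These differences cannot be told apart, and no test was made between the tables.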
